A study of Mus musculus with 4 samples.

Results

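The comparison of mouse fetal testes exposed to acetaminophen with control testes comprises 67 transcripts, all those that the authors' deposited table lists between the Control and the ACE+ACE library. They are part of 382 transcripts listed in the 6 tables of the series, 1 table for each pair of its 4 libraries. RNA came from testes of wild-type CD1 embryos at stage E13.5, freed of the mesonephros. The Control library carries the treatment label none and is called EtOH inside the table. The ACE+ACE library carries the treatment label acetaminophen. ASP+ACE (aspirin with acetaminophen) and IBU+ACE (ibuprofen with acetaminophen) are used here only for side-by-side values. The sources used here give neither the dose nor the days of exposure, nor how many embryos went into a library. Each group has 1 library, so a difference has no replicate check and compares libraries, not conditions.

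Around this stage Sertoli cells enclose the germ cells in cords, Leydig cells make androgens between the cords, and male germ cells give up their pluripotency genes and stop dividing. Acetaminophen is a painkiller that lowers prostaglandin synthesis and is cleared mainly by conjugation in the liver. The series asks, by its title, how acetaminophen and ibuprofen taken in pregnancy bear on germ cell differentiation in the fetal testis. Many of the genes below are best known for plasma proteins that the fetal liver and yolk sac secrete, such as albumin, alpha-fetoprotein and the apolipoproteins.

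Levels are given in FPKM (fragment counts scaled for transcript length and library depth), the unit that the layout of the deposited tables implies. The read counts behind them are unknown, so no interval or detection limit is given. The words rose and fell are kept for transcripts in the authors' deposited table. Since every row of that table has a p of 5e-05 and a q of 0.0310, neither ranks the transcripts. In bulk tissue, fewer cells of a type and less RNA per cell cannot be told apart.

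Most listed transcripts were lower in ACE+ACE. Of the 67, 50 fell, or 74.6%, and 17 rose, or 25.4%. Among the 40 with a gene symbol, 34 fell and 6 rose. Among the 27 without one, 16 fell and 11 rose. Of the 52 transcripts with both values above 0, 43 (82.7%) differed at least 2-fold, 40 of them downwards. The median log2 of ACE+ACE over Control was -1.81 among the 44 that fell and 0.93 among the 8 that rose. The other 15 were listed at 0 in 1 library.

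Another 116 transcripts had a value in both libraries because other tables listed them, mostly against IBU+ACE, while this table did not. The listed share of all transcripts with both values was thus 36.6%, which describes the tables and not the transcriptome. Of the 108 unlisted transcripts with both values above 0, 73 were lower and 35 higher in ACE+ACE, with a median log2 of -0.16. The unlisted values reached down to -1.46, for Kera (keratocan), at 0.203 FPKM in Control and 0.0734 in ACE+ACE. They reached up to 1.75, for the homeobox gene Hoxa13, at 0.0961 and 0.323 FPKM. The smallest change that was listed was that of Hist4h4, with a log2 of 0.55 at 45.4 and 66.7 FPKM. A transcript that was not listed is therefore not shown to be equal in both libraries.

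**Figure D1:**
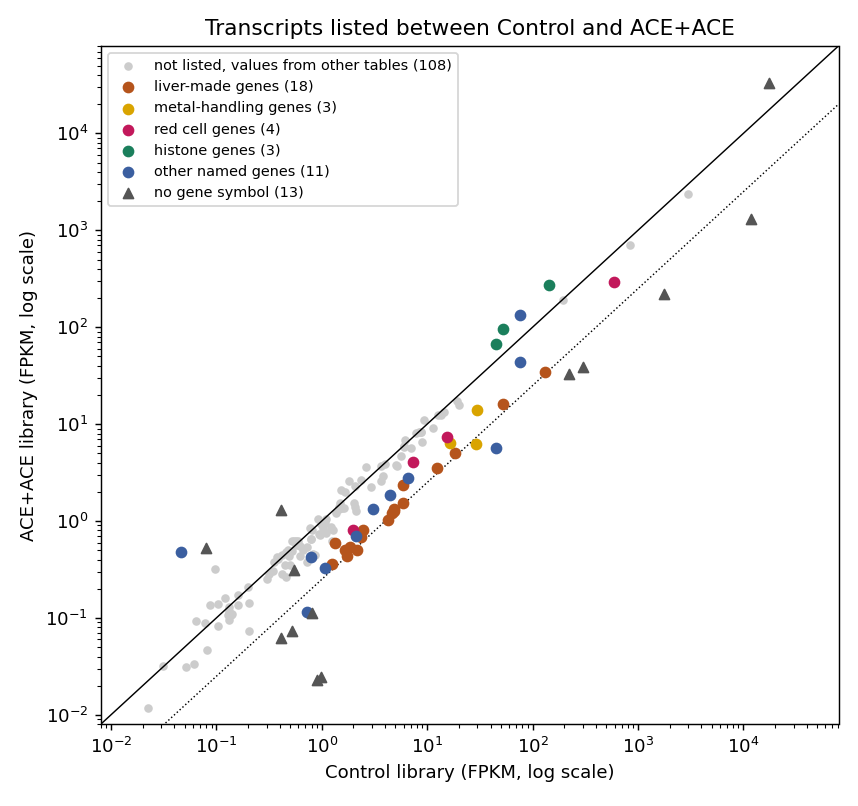
Level in the ACE+ACE library (vertical axis, FPKM, log scale) against the Control library (horizontal axis, FPKM, log scale), 1 library each. Coloured points are the 52 listed transcripts with both values above 0, grey points the 108 unlisted ones, the solid line marks equal values and the dotted line values 4-fold lower in ACE+ACE. The 18 liver-made genes lie in a band near the dotted line, the 3 histone genes above the solid line.

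Genes for liver-made plasma proteins fell together. Of 98 genes in 4 lists of such genes, 18 were listed, and all 18 fell, where 74.6% of all listed transcripts did. Their median log2 was -1.84, beside -1.72 over all listed transcripts with both values above 0. In Control their levels ranged from 1.26 to 130.2 FPKM, a 103-fold range. The falls were much closer to each other, from 2.25-fold to 4.36-fold, with 16 of the 18 genes at least 3.05-fold lower. Since only called transcripts are listed, smaller falls could be missing from this range. Summed over the 18 genes, the level was 258.7 FPKM in Control and 72.0 in ACE+ACE, 3.59-fold lower. No gene of these lists had both values without being listed.

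Of the 25 plasma carriers and apolipoproteins in their list, 10 fell, with Control levels from 1.26 FPKM for Gc to 130.2 FPKM for Afp. Alb encodes albumin, the main carrier protein of plasma (chromosome 5, 90460897 to 90476602). It had 52.6 FPKM in Control and 16.1 in ACE+ACE, a log2 change of -1.71. Afp encodes alpha-fetoprotein, the fetal counterpart of albumin (chromosome 5, 90490737 to 90515931, a locus that also covers Gm43449 on the other strand). It had 130.2 FPKM in Control and 34.2 in ACE+ACE, a log2 change of -1.93. Gc, the vitamin D binding protein and another member of the albumin family, had 1.26 and 0.364 FPKM, a log2 change of -1.80. The 3 family members thus fell by similar factors although Afp was far above Gc in both libraries. The 250 bases before the RefSeq starts of Alb and Afp (GRCm38.p6, plus strand) are shown because these neighbours fell together. Capitals mark matches to CCAAT on either strand and, in Afp, to TATAAA.
Alb, chr5:90460620-90460869: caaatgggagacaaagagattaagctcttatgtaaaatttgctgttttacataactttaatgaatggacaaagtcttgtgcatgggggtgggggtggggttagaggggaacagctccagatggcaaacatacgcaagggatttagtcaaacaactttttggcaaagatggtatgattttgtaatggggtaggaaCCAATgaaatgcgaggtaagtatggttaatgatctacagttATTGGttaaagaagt
Afp, chr5:90490464-90490713: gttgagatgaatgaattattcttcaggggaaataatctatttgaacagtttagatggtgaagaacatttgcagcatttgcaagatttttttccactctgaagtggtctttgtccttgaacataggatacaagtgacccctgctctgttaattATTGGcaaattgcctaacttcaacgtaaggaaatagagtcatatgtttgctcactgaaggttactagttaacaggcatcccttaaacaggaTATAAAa
These letters hold 2 CCAAT matches in Alb, and 1 CCAAT and 1 TATAAA match in Afp; 33.8% and 12.4% of the 32851 promoters searched hold such a match. A match is no evidence that a factor binds there.

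Apolipoprotein genes fell by nearly the same factor. Apoa1, whose product is the main protein of high-density lipoprotein, had 18.3 FPKM in Control and 5.03 in ACE+ACE (chromosome 9, 46228580 to 46230466). Apoa4, its neighbour 10229 nt downstream and a protein of lipid absorption, had 1.74 and 0.438 FPKM; its locus also covers Gm47528 and Gm10680 on the other strand. Apob, which encodes the structural protein of low-density lipoprotein (chromosome 12, 7977648 to 8016927), had 4.68 and 1.22 FPKM. Apom, a carrier of sphingosine 1-phosphate (chromosome 17, 35128976 to 35132249), had 4.84 and 1.26 FPKM. All 4 log2 changes lay between -1.99 and -1.87. Serpina6, the corticosteroid-binding globulin, had 12.3 FPKM in Control and 3.49 in ACE+ACE. Ambp, the precursor of alpha-1-microglobulin and bikunin, had 5.91 and 1.53 FPKM. Vtn, the adhesion protein vitronectin, had 2.49 and 0.817 FPKM, with a log2 of -1.61 the smallest fall of the carrier list.

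The clotting and complement list had 3 of 29 genes in the table, and all 3 fell. Fga and Fgb encode the alpha and beta chains of fibrinogen, the precursor of fibrin, and lie 6513 nt apart on chromosome 3 (83026076 to 83049863). Fga had 2.35 FPKM in Control and 0.691 in ACE+ACE, Fgb 1.85 and 0.536 FPKM, and their log2 changes of -1.77 and -1.78 were nearly equal. C3, the central complement component, had 1.67 and 0.505 FPKM; its locus (chromosome 17, 57203970 to 57228136) also covers the microRNA gene Mir6978.

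Among protease inhibitors and matrix carriers, 5 of 18 genes fell. Spp2, a secreted phosphoprotein of bone matrix (chromosome 1, 88406949 to 88426438), had 2.18 FPKM in Control and 0.50 in ACE+ACE, the largest fall of the 18 liver-made genes at 4.36-fold. Itih2, a heavy chain of the inter-alpha-trypsin inhibitor family that is joined to bikunin in plasma, had 4.22 and 1.03 FPKM, so that it and the bikunin gene Ambp both fell. Serpinf2, the antiplasmin that limits clot breakdown, had 4.81 and 1.32 FPKM. The last pair of this list fell least among the 18 genes. Ahsg, fetuin-A, had 5.90 and 2.38 FPKM, a log2 of -1.31, at a locus that also covers Gm30505. A2m, the broad protease inhibitor alpha-2-macroglobulin, had 1.34 and 0.596 FPKM, a log2 of -1.17.

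The fourth list, of liver enzymes and transcription factors, had 0 of its 26 genes in the table. Of 8 hepatocyte markers, 6 were listed (Afp, Alb, Apoa1, Ahsg, Fgb and Trf) and all 6 fell, where 74.6% of all listed transcripts did. The summed level of these 6 was 238.1 FPKM in Control and 64.5 in ACE+ACE. The other 2 markers stood in no table. All listed markers but Trf are among the 18 liver-made genes. The counts by marker and by single list therefore restate the count of 18 and add no separate evidence. How far liver-derived RNA or plasma protein gene expression within the gonad enters these values was not tested.

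Values of the same liver-made genes in the other exposed libraries could be read only for members that another table lists. Of the 14 with an IBU+ACE value, 13 were listed against ACE+ACE, as were 8 of the 10 with an ASP+ACE value. These values thus belong to genes that differed from ACE+ACE, so ACE+ACE being the low library was nearly fixed by how they were found, and nothing is read from the order. In IBU+ACE 14 of the 18 had a value, with a median of 1.16 times Control and a range from 0.380 to 1.74 times. In ASP+ACE 10 had a value, with a median of 0.725 times Control and a range from 0.208 to 1.03 times. For the same 14 and the same 10 genes, ACE+ACE stood at a median of 0.286 times Control. Of the 10 genes with all 4 values, 9 had their lowest value in ACE+ACE. The exception was Apoa4, with 0.361 FPKM in ASP+ACE, 0.438 in ACE+ACE, 0.661 in IBU+ACE and 1.74 in Control. Afp had 67.8 FPKM in ASP+ACE and 112.6 in IBU+ACE, and Alb 46.4 and 77.3 FPKM, so both were above their ACE+ACE levels in each. The tables share the ACE+ACE library with the comparison described here, so they do not repeat it.

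**Figure D2:**
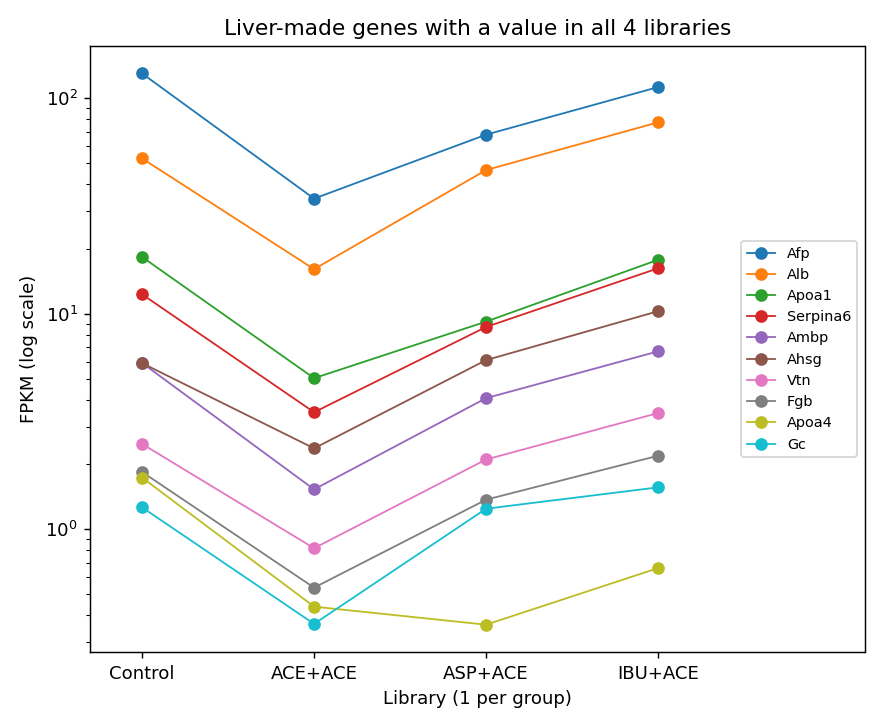
FPKM (vertical axis, log scale) of the 10 liver-made genes with a value in all 4 libraries (horizontal axis, 1 library per group); each line joins 1 gene's values and has no order in time or dose. For 9 genes the lowest point is ACE+ACE, which the listing against ACE+ACE nearly fixes, and for Apoa4 it is ASP+ACE.

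Of 15 genes for metal-handling proteins 3 were listed, all 3 lower, a count that 74.6% of lower transcripts in the table does not set apart. Trf, transferrin, the iron carrier of plasma and also a product of Sertoli cells, had 29.2 FPKM in Control and 6.28 in ACE+ACE. Its log2 of -2.22 was a deeper fall than that of any of the 18 liver-made genes. The Trf locus (chromosome 9, 103188032 to 103230463) also covers Srprb and Gm20425, whose reads could enter the value. Mt1 and Mt2 encode metallothioneins, small zinc and copper binding proteins that metals and glucocorticoids induce; they lie 5521 nt apart on chromosome 8. Mt1 had 29.9 and 13.9 FPKM, a log2 of -1.11. Mt2, whose locus also covers Gm45774 on the other strand, had 16.3 and 6.42 FPKM, a log2 of -1.35. In IBU+ACE the same genes had 30.1 and 16.6 FPKM, known because both were listed between ACE+ACE and IBU+ACE. Neither was listed between Control and IBU+ACE, so lying near their Control levels, as both did, was nearly fixed. The 250 bases before their RefSeq starts (GRCm38.p6, plus strand) are shown because metal response elements are the known control sites of this pair. Capitals mark matches to TGCNCNC, the pattern searched here for that element, on either strand.
Mt1, chr8:94178839-94179088: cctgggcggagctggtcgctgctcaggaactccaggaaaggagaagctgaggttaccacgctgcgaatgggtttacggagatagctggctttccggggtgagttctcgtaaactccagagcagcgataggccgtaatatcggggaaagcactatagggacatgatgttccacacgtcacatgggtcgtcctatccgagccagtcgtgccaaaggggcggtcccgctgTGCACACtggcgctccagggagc
Mt2, chr8:94172368-94172617: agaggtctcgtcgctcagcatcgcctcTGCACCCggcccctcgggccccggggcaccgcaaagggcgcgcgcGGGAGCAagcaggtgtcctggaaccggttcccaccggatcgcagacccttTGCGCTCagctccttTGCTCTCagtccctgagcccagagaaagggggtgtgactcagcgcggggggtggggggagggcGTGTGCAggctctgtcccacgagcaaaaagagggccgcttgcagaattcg
Mt1 holds 1 match, as do 44.4% of all promoters at 1 or more, and Mt2 holds 5, a number that 0.344% of promoters reach. The pair thus differed in matches to this pattern within this window while both genes fell. Sites outside the window were not searched, so each count depends on where RefSeq places the start of the gene.

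Red cell genes fell by smaller factors. Of 25 genes in their list 4 were listed, all 4 lower, with a median log2 of -1.05; with 74.6% of all listed transcripts lower, so small a count says little about direction. Hbb-bt, an adult beta-globin gene (chromosome 7, 103812524 to 103813996), had 594.8 FPKM in Control and 292.8 in ACE+ACE; its near-identical neighbour Hbb-bs makes the split of reads uncertain. Slc4a1, the anion exchanger of the red cell membrane, had 15.5 and 7.35 FPKM. Rhag, a membrane protein of the Rh complex, had 1.98 and 0.802 FPKM. Hemgn, a nuclear protein of blood-forming cells outside the list, fell from 3.04 to 1.33 FPKM. Hbb-y, a globin of primitive red cells, was not listed at 3012 and 2350.3 FPKM, a log2 of -0.36. In ASP+ACE, Hbb-bt had 344.8 FPKM and Slc4a1 8.15 FPKM, known because these genes were listed between Control and ASP+ACE. Neither was listed between ACE+ACE and ASP+ACE, so lying nearer to ACE+ACE than to Control, as both did, was nearly fixed. In IBU+ACE, Slc4a1 had 14.3 FPKM and Hemgn 4.02 FPKM, the first near its Control level and the second above it. Values of both are known because the table against ACE+ACE lists them. Of 8 red cell markers 3 were listed, all 3 lower. The part of blood left in the tissue in these values was not tested.

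**Figure D3:**
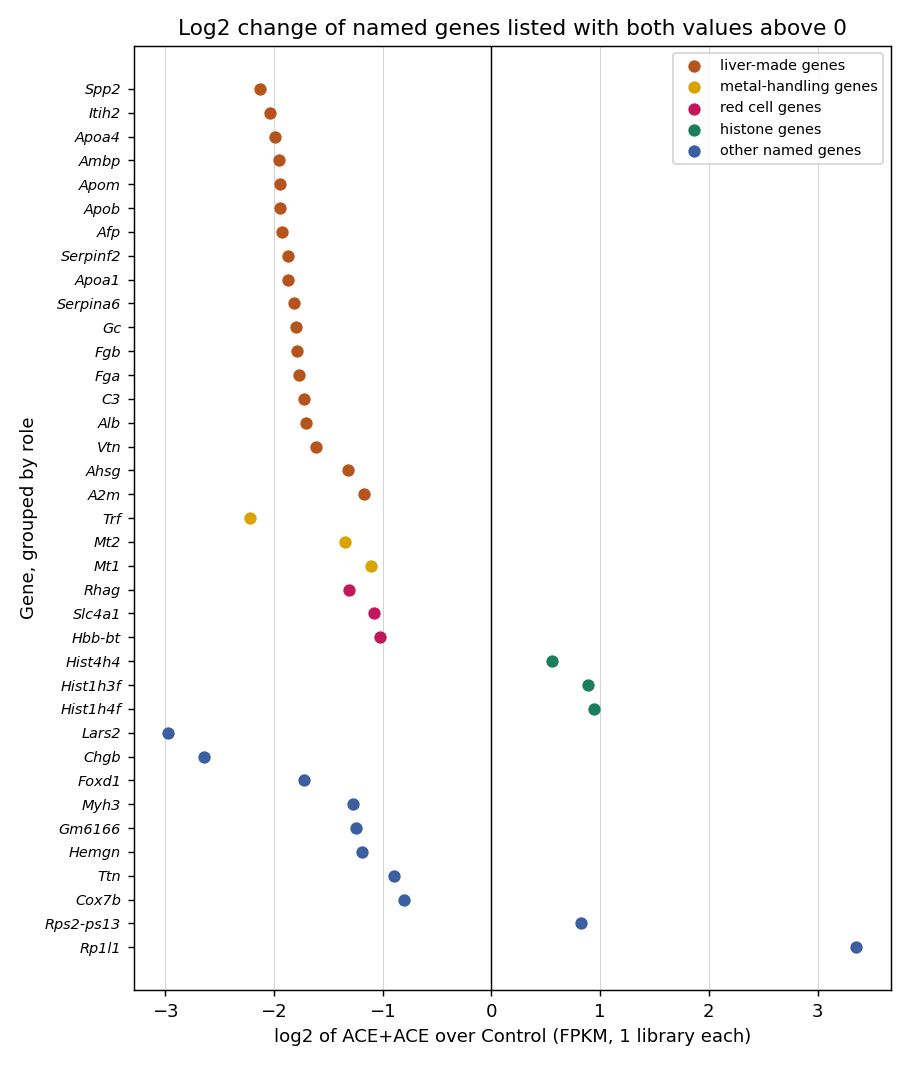
Log2 of ACE+ACE over Control (horizontal axis) for 37 named genes with both values above 0 (vertical axis), 1 library each, coloured by role. The liver-made genes run from -2.12 to -1.17, the 3 red cell genes drawn from -1.31 to -1.02, and the 3 histone genes from 0.55 to 0.95.

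Histone genes made up 3 of the 6 named genes that rose. Of the 67 genes in the histone list, 3 were listed, all 3 higher, where 25.4% of all listed transcripts rose. Hist1h4f, an H4 gene (chromosome 13, 23551258 to 23551648), had 142.5 FPKM in Control and 274.4 in ACE+ACE. Hist1h3f, an H3 gene 5945 nt away in the same cluster, had 52.1 and 96.6 FPKM, and Hist4h4 on chromosome 6 had 45.4 and 66.7 FPKM. Their log2 changes of 0.95, 0.89 and 0.55 were all under 1. In IBU+ACE the 3 genes had 296.2, 103.9 and 78.7 FPKM, and in ASP+ACE Hist1h4f and Hist1h3f had 283.6 and 96.1 FPKM. These values are known because the genes were listed between Control and the library in question, so they had to differ from Control. The comparisons also share the Control library, so they do not repeat the rise. Histone genes have near-identical copies, and their mature messages lack poly(A) tails, which libraries made by ribosomal RNA depletion retain.

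The other named genes that rose were low or pseudogenes. Rp1l1, a gene of photoreceptor cilia (chromosome 14, 63992431 to 64033504), had 0.0466 FPKM in Control and 0.477 in ACE+ACE, a log2 of 3.35 between low values. Rps2-ps13, a processed pseudogene of a ribosomal protein gene on chromosome X, had 75.6 and 134.2 FPKM, beside 61.1 FPKM in ASP+ACE and 44.3 in IBU+ACE. It was thus highest in ACE+ACE among the 4 libraries, an extreme that its listing between ACE+ACE and each other library nearly fixes. Gm14414, a processed pseudogene on chromosome 2, was listed at 0 in Control and in IBU+ACE, at 1.80 FPKM in ACE+ACE and at 0.998 in ASP+ACE. Reads of these pseudogenes may belong to near-identical genes elsewhere.

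Other genes that fell had varied roles. Myh3, the embryonic myosin heavy chain, had 4.46 FPKM in Control and 1.85 in ACE+ACE, at a locus that also covers Mir6923. Ttn, the giant sarcomere protein titin, had 0.80 and 0.431 FPKM; it and Myh3 were the listed members of a muscle list of 15 genes. Foxd1, a transcription factor of kidney stroma, had 1.07 and 0.326 FPKM. Chgb, chromogranin B of secretory granules, had 0.719 and 0.115 FPKM, beside 0.0809 in ASP+ACE and 0.0759 in IBU+ACE. The last values are known because Chgb was listed between Control and each of those libraries, so they had to differ from Control. Gm6166, a processed pseudogene on chromosome 9 whose locus also covers Gm18103, had 6.58 and 2.78 FPKM. Cox7b, a subunit of cytochrome c oxidase (chromosome X, 106012043 to 106022450), had 76.8 and 43.9 FPKM.

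Lars2, the mitochondrial leucyl-tRNA synthetase gene, had the deepest fall of any named gene. It lies on chromosome 9 (123366940 to 123462664) and had 44.8 FPKM in Control and 5.72 in ACE+ACE, or 12.8% of Control. It was the 1 listed member of 17 mitochondrial tRNA synthetase genes, and 0 of 13 mitochondrially encoded genes were listed. Set beside it here are 4 transcripts without a symbol, outside annotated genes, chosen after their values were seen for falls of like size. The 87 nt transcript on chromosome 1 (136364885 to 136364971) had 11901 and 1325 FPKM, and the 123 nt one (102628205 to 102628327) 1759 and 219.9 FPKM. The 130 nt transcript on chromosome 6 (3201436 to 3201565) had 298.8 and 38.7 FPKM, and the 437 nt one on chromosome 3 (5860338 to 5860774) 223.6 and 33.2 FPKM. All 5 kept between 11.1% and 14.9% of their Control level in ACE+ACE, a range that follows from this choice, over Control levels from 44.8 to 11901 FPKM. In ASP+ACE they kept between 24.7% and 30.4%, and in IBU+ACE between 9.88% and 17.6%. Control was the highest library for each of them. All 5 were listed between Control and each exposed library, and these comparisons share the Control library, so this follows in part from the listing. Other short transcripts were listed at 0 in ACE+ACE and are described with those. FPKM divides by length, so transcripts this short get high values from few fragments, whose number is unknown here.

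A transcript of like length went the other way. The 122 nt transcript on chromosome 1 (122357128 to 122357249) had 17614 FPKM in Control but 33322 in ACE+ACE, beside 29629 in ASP+ACE and 29288 in IBU+ACE. It had the highest level of any transcript in the table, and Control was its lowest library. It too was listed between Control and each exposed library, so Control being its extreme follows in part from the listing.

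**Figure D4:**
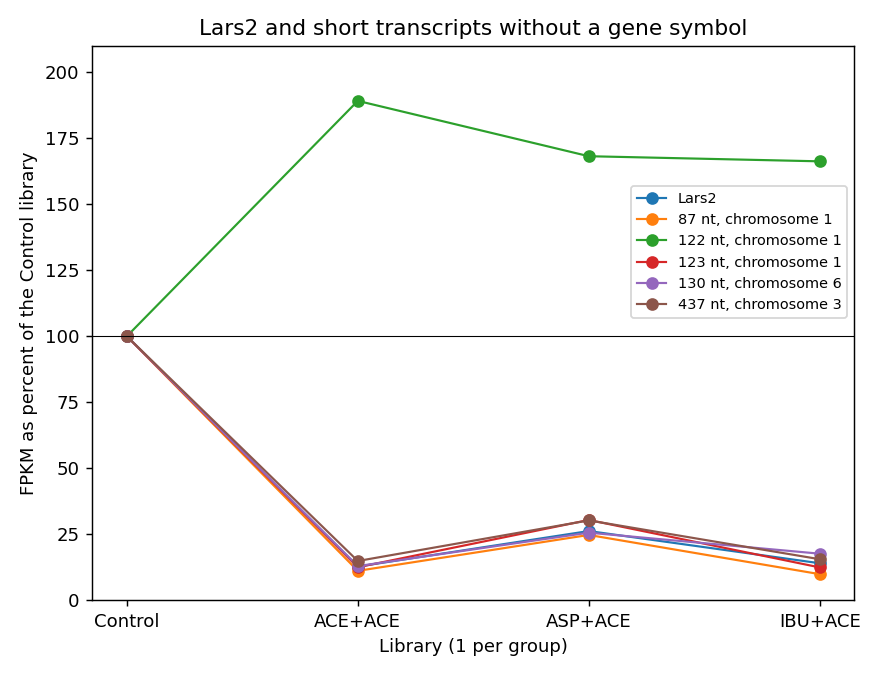
FPKM as a percentage of the Control library (vertical axis) in each library (horizontal axis, 1 per group) for Lars2 and 5 short transcripts without a gene symbol; each line joins 1 transcript's values. In ACE+ACE, Lars2 and 4 of the transcripts lie between 11.1% and 14.9%, and the 122 nt transcript lies at 189%.

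Of the 27 transcripts without a symbol, 25 overlapped no gene of the GENCODE M21 annotation, and their loci ran from 87 to 40803 nt. Some lay side by side; these groups were chosen after their values were seen. Between Atrx and Magt1 on chromosome X, 3 transcripts spanned 22510 nt (105945021 to 105967530). The first had 0.987 FPKM in Control and 0.0244 in ACE+ACE, the second 0.912 and 0.0227, and the third 0.802 and 0.112 FPKM. The first of them kept 2.47% of its Control level in ACE+ACE and 19.7% in IBU+ACE. The IBU+ACE value is known because this transcript was listed between Control and IBU+ACE, so it had to differ from Control. The Cox7b locus starts 44512 nt beyond the third. On chromosome 16, a pair of transcripts 311 nt apart (31546876 to 31574100) had 0.412 and 0.526 FPKM in Control and 0.0618 and 0.0741 in ACE+ACE. In IBU+ACE that pair had 0.442 and 0.60 FPKM, and the second had 0.467 in ASP+ACE. These values are known because the tables against ACE+ACE list the pair, so they had to differ from it.

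Of the remaining transcripts without a symbol that had both values above 0, 1 fell and 2 rose. The one that fell, on chromosome 16 (72147299 to 72165413), had 0.547 and 0.314 FPKM. One that rose, on chromosome 16 (90338640 to 90341670) over part of Gm49708, had 0.41 FPKM in Control and 1.3 in ACE+ACE, beside 0.137 in ASP+ACE and 0.417 in IBU+ACE. It was listed between ACE+ACE and each of those libraries, so their values had to differ from ACE+ACE. The other, on chromosome 1 (35567633 to 35608435), had 0.0803 and 0.525 FPKM, with higher values still of 0.758 in ASP+ACE and 1.11 in IBU+ACE. This one was listed between Control and both libraries, and between ACE+ACE and IBU+ACE, so the values had to differ there.

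Another 14 transcripts without a symbol were listed at 0 in 1 library, so no fold is given. In ACE+ACE 6 were listed at 0. A group of 3 lay within 2998 nt on chromosome 7 (11139110 to 11142107), at 0.730, 2.86 and 1.05 FPKM in Control. The first and the last of the group were listed at 0 in IBU+ACE too, and the last had 0.658 FPKM in ASP+ACE. Both were listed between Control and IBU+ACE, so these zeros had to differ from Control. The last was also listed between ACE+ACE and ASP+ACE, so its ASP+ACE value had to differ from ACE+ACE. The other 3 had 2.54 FPKM on chromosome 1 (72404678 to 72404885; listed at 0 in ASP+ACE as well), 0.333 on chromosome 15 (50046003 to 50046820) and 0.483 on chromosome X (38166973 to 38167523). The one on chromosome 1 was also listed between Control and ASP+ACE, so its ASP+ACE value had to differ from Control. In Control 8 were listed at 0. Their highest ACE+ACE values were 2.43 FPKM on chromosome 14 (102843878 to 102844111), 1.0 on chromosome 13 (77630072 to 77630433) and 0.709 on chromosome 8 (69356983 to 69357352). Of lower value were 0.545 FPKM on chromosome 4 (48018330 to 48018746), 0.475 on chromosome 1 (190063335 to 190063807) and 0.438 on chromosome 2 (78651490 to 78652333). The lowest were 0.431 FPKM on chromosome 9 (117741607 to 117742150), within Gm45881 outside its exons, and 0.351 on chromosome 19 (56606662 to 56607113).

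Within 50 kb of each other lay 11 pairs of listed transcripts, and all 11 agreed in direction. Since 74.6% of all listed transcripts were lower, many pairs would agree in any case, and pairs without symbols were adjacent pieces on chromosomes X, 7 and 16. In the 5 pairs of named genes (Alb and Afp, Fga and Fgb, Apoa1 and Apoa4, Mt1 and Mt2, Hist1h3f and Hist1h4f) the log2 changes differed by at most 0.24. The genes of each pair are also related in function, so position and role cannot be told apart here.

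Few genes that define the cells of the fetal testis were among the listed transcripts. The authors deposited called transcripts only, so no share over all transcripts can be set beside the counts that follow. Such low counts are therefore not read as a result about these genes. No gene was listed of 16 Leydig, 24 pluripotency, 25 male germ cell, 15 meiosis, 15 endothelial, 13 macrophage and 12 mesonephros genes, nor of 22 prostaglandin and 31 acetaminophen-handling genes. Of 25 Sertoli genes, Trf was listed. For a few of these genes both values could be read from other tables. Each gene given here was listed between Control and IBU+ACE and between ACE+ACE and IBU+ACE, but not between Control and ACE+ACE. Values near each other were thus favoured by how they were found, and nothing is read from their closeness. Sox9, which drives Sertoli cell fate, had 5.98 FPKM in Control and 5.97 in ACE+ACE. Sohlh2, a germ cell transcription factor, had 8.30 and 8.37 FPKM, and Morc1, a repressor of transposons in the male germ line, 8.84 and 8.24 FPKM. Tdrd9, a helicase of the piRNA pathway, had 2.37 and 2.64 FPKM. Lefty1, a Nodal inhibitor of undifferentiated germ cells, had 9.37 and 11.04 FPKM. Dnmt3l, which helps to set DNA methylation in male germ cells, had 1.24 and 0.619 FPKM, a difference of about 2-fold that was not listed. The testis markers with values were thus present in both libraries; those in no table were not analysed here.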

How the data were processed

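RNA was measured in 4 libraries of mouse fetal testis, 1 per group, of which Control and ACE+ACE were compared. Per the submitters' processing notes, the tools were TopHat2 2.1, Bowtie2 2.2.6, Cufflinks 2.2.1, SAMtools 1.3, FastQC and bcl2fastq 2.17, and the build was GRCm38. Settings, strand use included, are not stated there. Per the file headers, the authors deposited for each pair of libraries the transcripts called different, with both values, p-value, q-value and log2 fold change. The values are read as FPKM from that layout, since the headers name no unit. EtOH inside the tables is taken as Control, from the tables' names.

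Decimal commas were read as points in pandas 2.3.3 (Python 3.11.15, numpy 2.4.6), and plots were drawn with matplotlib 3.10.9. Recomputed log2 fold changes differed from those the authors deposited by at most 8.7e-06, and 0 values of a library differed between tables. Reading and counting were tested on simulated data. No test was run, for want of replicates: listed transcripts were counted by direction and by 21 gene lists. The members and lists were chosen with earlier results of these data known. By rule every listed gene symbol is named, except 2 genes that are not reported here, and transcripts without a symbol are given by locus. All 40 symbols matched GENCODE M21; loci are those of the deposited tables, counted from 1. RefSeq promoters (GRCm38.p6) matched 31 symbols, 4 by an older name. Alternatives were a fold or level minimum, added FPKM, and leaving out zeros, loci over several genes, or small RNA genes and pseudogenes.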

Additional observations from a re-analysis of the deposited data

How the results depend on the processing

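No alternative could change the direction of a transcript, since each dropped transcripts or added the same FPKM to both values. The alternatives therefore bear on counts, shares and sizes only. With 1 FPKM added to both values and at least a 2-fold difference required, 27 of the 67 transcripts were left, 88.9% of them lower; 11 liver-made genes, 1 red cell gene, 0 histone genes and 9 transcripts without a symbol were among them. The histone count was also 0 with a 2-fold minimum on the values as deposited or after 0.1 FPKM was added. Leaving out transcripts listed at 0 raised the lower share to 84.6% and left 13 transcripts without a symbol. A higher value of at least 1 FPKM left 11 of these. Of the 39 genes with a symbol and both values above 0, 15 came under 2-fold with 1 FPKM added and 0 with 0.1 FPKM added. No other setting moved the total of a group by over 1.5 times. Counts of transcripts that rose moved more. The 17 that rose as deposited became 9 with a higher value of at least 1 FPKM, and 8 without transcripts listed at 0. Among those without a symbol, 11 that rose became 4 and 3 under these settings. No paired analysis was possible because each group has 1 library, and for the same reason no library could be left out. Unknown depth limits every low value, the transcripts listed at 0 above all.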

Other observations

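Promoters of 31 of the 40 named genes were searched for 6 motifs over the 250 bases before the start, on both strands, as a description. The HNF1 motif, searched as a long fixed pattern without mismatches, had a match in 0 of the 31, and in 3 of all 32851 promoters. So rare a pattern was nearly sure to give 0 here, and looser HNF1 sites were not searched. The HNF4 motif CAAAGTCCA also had 0, against 0.384% of all promoters. The GATA factor motif AGATAA was in 4 of the 31 (Spp2, Itih2, Serpinf2 and Hist4h4), against 9.99% of all promoters, and TATAAA in 7, against 12.4%. CCAAT was in 9 of the 31, against 33.8%, and TGCNCNC in 14, against 44.4%. The absence of a match says only that these letters are not in this window. With both patterns this rare among all promoters, the counts of 0 do not show that these promoters lack HNF1 or HNF4 sites.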
